A study of Mus musculus with 12 samples.

Results

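Malat1, Neat1, Meg3, Miat, Rian and Snhg11 are 6 long noncoding RNAs that are kept in the nucleus and were measured here in total RNA. They were chosen by name, with earlier results of the same data in view, from the 23382 rows of the deposited count table. All 6 were found, and all 6 were among the 15802 genes that passed the filter on low counts. No threshold for the name "abundant" was set. By mean level among the rows, Malat1 ranked 1, Meg3 237, Rian 277, Snhg11 773, Miat 1264 and Neat1 6311. These ranks are not corrected for transcript length.

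The study measured RNA of the mouse hippocampus in 12 libraries, which form 4 groups of 3. Mutant mice, called aDN-DISC1 in the labels, received Δ9-tetrahydrocannabinol (THC, the cannabis compound behind most of the drug's effect on the mind) in the first group and vehicle in the second. Control mice received THC in the third group and vehicle in the fourth, and all groups share a C57BL/6 background. The series title speaks of a vulnerability specific to astrocytes. DISC1 itself is a scaffold protein with known links to mental illness. The promoter that drives the mutant protein and the mice's age, sex, litter and THC dose are not given in the sources used here. Control libraries were placed by their titles, as their labels carry no genotype entry. Beyond the number per group, nothing says that libraries came from separate mice. A test between groups thus weighs their difference only against the scatter of libraries within groups, which may be technical. The running numbers in the labels are 6 to 11 for the vehicle libraries and 1 to 5 and 12 for the THC libraries, so whatever follows that order and the treatment cannot be told apart.

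Total expected counts lay between 33165903 and 41389957 per library, and levels are given as CPM, the count divided by this total and multiplied by 1e+06. Hippocampal and general neuronal markers were detected in every library. Summed markers of the choroid plexus, the tissue that makes cerebrospinal fluid, differed far more between libraries than any of the 6 RNAs. They reached 336 to 10688 CPM in mutant THC libraries, 6193 to 17290 in mutant vehicle, 334 to 9071 in control THC and 328 to 408 in control vehicle. Summed markers of striatal neurons were at 4768 CPM in mutant THC 3 and 613 CPM in mutant vehicle 3, against 179 to 210 CPM in the other 10 libraries.

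Malat1 lies in nuclear speckles, the bodies that store splicing factors, and its end is made by RNase P, which cuts off a small tRNA-like RNA and leaves a triple helix in place of a poly(A) tail. Neat1 is made from the neighbouring gene in a short polyadenylated form and a long form that is the scaffold of paraspeckles and ends like Malat1. Miat, also called Gomafu, is an RNA of neurons that carries repeats bound by the splicing factor SF1. Meg3 and Rian are read from the maternal chromosome of the imprinted Dlk1-Dio3 domain and lie in the path of microRNAs and small nucleolar RNAs (snoRNAs). Snhg11 is a snoRNA host gene. In bulk tissue, fewer cells of a type and less RNA per cell cannot be told apart.

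The sequences below show what distinguishes these RNAs in their letters, from GENCODE transcripts on GRCm38. They are written 5′ to 3′ on the minus strand, with the elements named here in capitals. In the ends of Malat1 and of long Neat1 these are U-rich runs and the A-rich run that closes the transcript. In the end of short Neat1 the capitals mark the AATAAA polyadenylation signal, and in Miat the TACTAAC repeats.
Malat1, last 100 bases before the tRNA-like RNA (chr19:5795982-5796081): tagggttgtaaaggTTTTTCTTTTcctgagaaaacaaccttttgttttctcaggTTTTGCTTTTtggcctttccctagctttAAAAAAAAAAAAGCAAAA
Neat1, end of the long form (chr19:5824708-5824787): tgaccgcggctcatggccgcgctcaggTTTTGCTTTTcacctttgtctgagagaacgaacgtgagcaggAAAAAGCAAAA
Neat1, end of the short form (chr19:5842307-5842386): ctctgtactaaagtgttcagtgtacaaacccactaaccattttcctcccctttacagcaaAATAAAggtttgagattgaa
Miat, densest 3 repeats (chr5:112216738-112216817): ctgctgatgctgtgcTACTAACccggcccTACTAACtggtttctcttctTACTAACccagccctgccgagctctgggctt

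The longest run that the ends of Malat1 and long Neat1 share has 16 bases, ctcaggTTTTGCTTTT, and in both an A-rich run that ends in GCAAAA follows it. Its last 10 bases, TTTTGCTTTT, were searched for elsewhere. Of 141767 GENCODE transcripts searched on the transcribed strand, 1528 (1.078%) hold them and 618 (0.436%) hold at least 5 A before GCAAAA. In all, 4 transcripts (0.0028%) hold both in this order within 80 bases, and 2 of these 4 are Malat1 and long Neat1. Both patterns were drawn from these 2 ends, so their presence among the 4 was fixed in advance. The rest were not identified here and may be other forms of the same genes. The short form of Neat1, 3004 bases long, lies wholly within the long form of 20771 bases and lacks this end. The deposited Neat1 row is matched to the short form, so its counts come from sequence that both forms share and do not tell them apart. Miat holds 6 copies of TACTAAC, a number reached by 3 of 7040 transcripts of at least 5000 bases (0.043%), while Malat1, short Neat1, Meg3 and Snhg11 hold 0 copies. The Miat transcript is itself among these 3, and the others were not identified here and may be other forms of Miat.

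The genes lie in 4 places of the genome (GRCm38.p6). Malat1 (chr19:5795690-5802672) and Neat1 (chr19:5824708-5845480) are 22035 bases apart. Meg3 (chr12:109540996-109571729) and Rian (chr12:109603945-109661716) are separated by 32215 bases. Rian spans 3 microRNA and 11 snoRNA genes, and the 10 of those 14 that have a row in the count table had a summed count of 1 over all 12 libraries. Meg3 spans 2 microRNA genes, Snhg11 (chr2:158375713-158386474) spans 2 snoRNA genes, and Miat (chr5:112213228-112228948) spans neither kind. All 6 are annotated as long noncoding RNA genes.

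Malat1 was the highest row of the table in 11 of 12 libraries. Its level was 7435, 9736 and 8260 CPM in mutant THC libraries, 8362, 7521 and 8875 CPM in mutant vehicle, 7728, 10539 and 10396 CPM in control THC and 7026, 11848 and 8327 CPM in control vehicle. The control vehicle group held both the lowest and the highest library, and all groups overlapped. Neat1, its chromosomal neighbour, was at 30.2, 25.9 and 27.0 CPM in mutant THC libraries, 35.3, 41.3 and 31.2 CPM in mutant vehicle, 33.9, 47.3 and 31.1 CPM in control THC and 24.3, 48.5 and 17.2 CPM in control vehicle. The mutant THC libraries lay below all mutant vehicle and all control THC libraries, while control vehicle spanned the whole range. Per kilobase of transcript, Malat1 averaged 1266 CPM and Neat1 10.9 CPM.

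Miat was at 122, 219 and 91.1 CPM in mutant THC libraries, 129, 137 and 111 CPM in mutant vehicle, 190, 247 and 204 CPM in control THC and 155, 293 and 172 CPM in control vehicle. The mutant vehicle libraries were all below the control vehicle libraries, and mutant THC 3, which carries the striatal markers, was the lowest of all 12. Per kilobase, Miat averaged 19.7 CPM.

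Meg3 was at 368, 479 and 443 CPM in mutant THC libraries, 367, 370.3 and 312 CPM in mutant vehicle, 531, 692 and 289.7 CPM in control THC and 469.7, 962 and 489 CPM in control vehicle. Control vehicle 2 stood above the other 11 and control THC 3 below them, and mutant vehicle lay below control vehicle throughout. Rian, from the same domain, was at 457, 421 and 471 CPM in mutant THC libraries, 398, 431 and 404 CPM in mutant vehicle, 471, 429 and 322 CPM in control THC and 489.7, 499.8 and 509 CPM in control vehicle. Its 3 control vehicle libraries were the highest of the 12, and control THC 3 was again the lowest. Meg3 averaged 33.1 CPM per kilobase of its longest transcript of 14548 bases, a figure that is uncertain since its other transcripts have 1988 and 1896 bases. Rian was not compared per length.

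Snhg11 was at 189, 278 and 223 CPM in mutant THC libraries, 179, 217 and 151 CPM in mutant vehicle, 267, 286 and 169 CPM in control THC and 238, 439.6 and 293 CPM in control vehicle. The mutant vehicle libraries lay below all control vehicle libraries, and the THC groups overlapped with each other and with their vehicle groups. Per kilobase it averaged 41.6 CPM, second to Malat1 among the 5 with a length. Library ranges per kilobase did not overlap between Malat1 (1006 to 1697 CPM) and the rest. Those of Snhg11 (25.7 to 75.0), Meg3 (19.9 to 66.1) and Miat (10.4 to 33.4) overlapped, as did those of Miat and Neat1 (5.71 to 16.2).

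**Figure D1:**
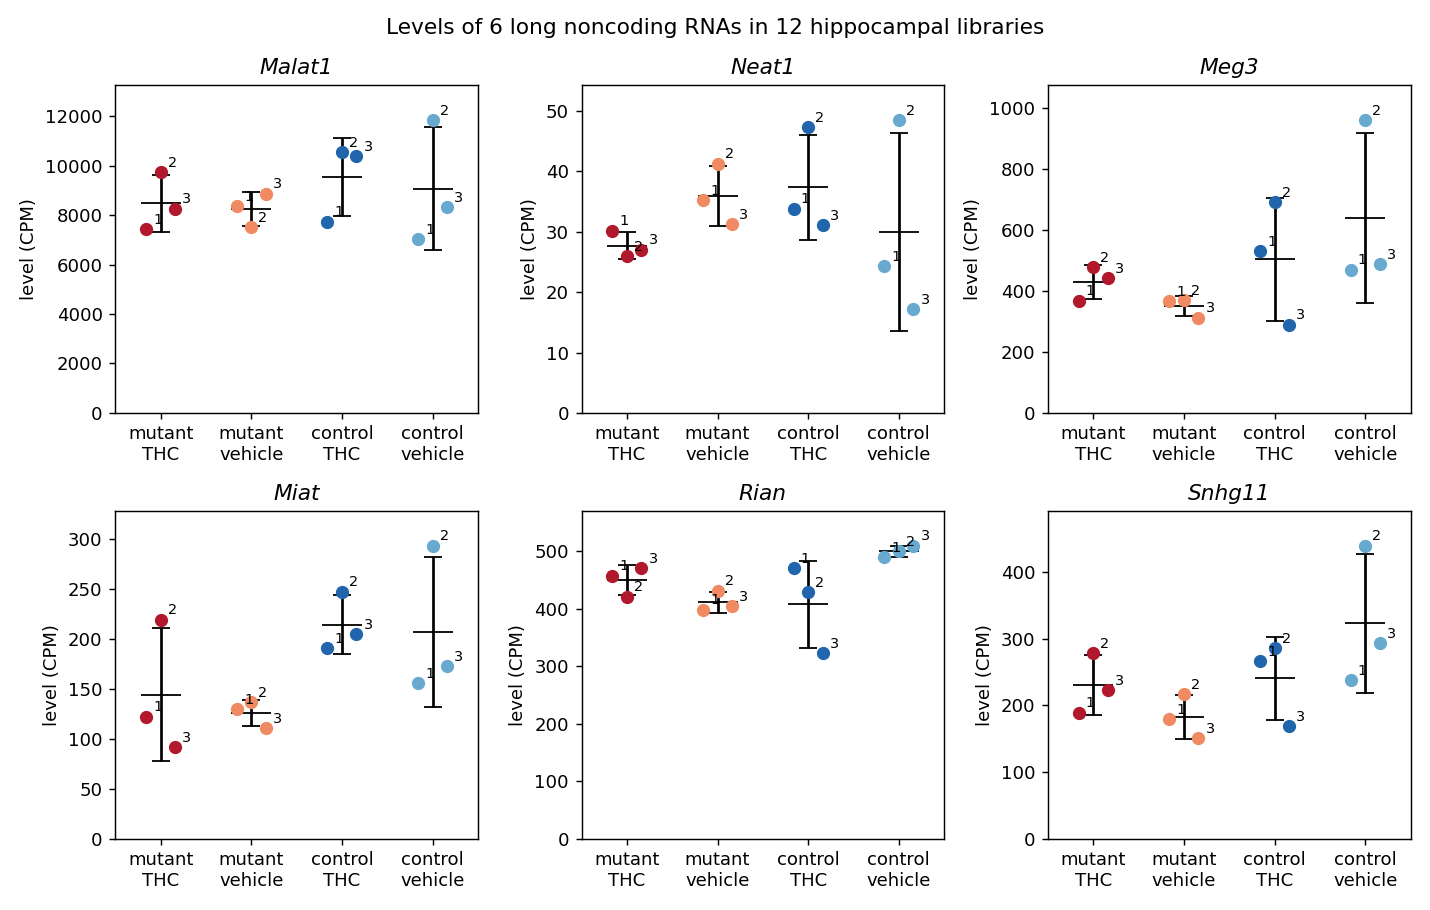
Level of each RNA in CPM (linear axes from 0) in the 3 numbered libraries of each group, with the group mean (horizontal line) and SD (bars). Control vehicle 2 is the highest library in 5 of the 6 panels, while Rian has its 3 highest libraries in the control vehicle group.

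The spread between libraries was wide for 4 of the RNAs and narrow for Rian and Malat1. Over the 12 libraries the coefficient of variation was 38.8% for Meg3, 34.9% for Miat, 32.0% for Snhg11 and 28.3% for Neat1, and it was 16.8% for Malat1 and 11.9% for Rian. The highest library was 3.32 times the lowest for Meg3 and 1.58 times the lowest for Rian. Together the 6 RNAs held between 0.840% (control vehicle 1) and 1.41% (control vehicle 2) of the counts.

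A single control library was high for every RNA, though it was not always the one farthest from the mean. Control vehicle 2 was above the 12-library mean in 6 of 6 RNAs, by 1.08 for Meg3, 0.91 for Snhg11, 0.84 for Miat, 0.62 for Neat1, 0.44 for Malat1 and 0.19 for Rian on the log2 scale. Neat1 lay farther out in control vehicle 3 (-0.88) and Rian in control THC 3. Miat lay nearly as far out in mutant THC 3 (-0.84). Control THC 3 differed in sign between RNAs, with deviations of -0.65 for Meg3, -0.47 for Snhg11 and -0.45 for Rian, and of 0.32 for Miat and 0.25 for Malat1. Each mutant vehicle library was below the mean in 5 of 6 RNAs.

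**Figure D2:**
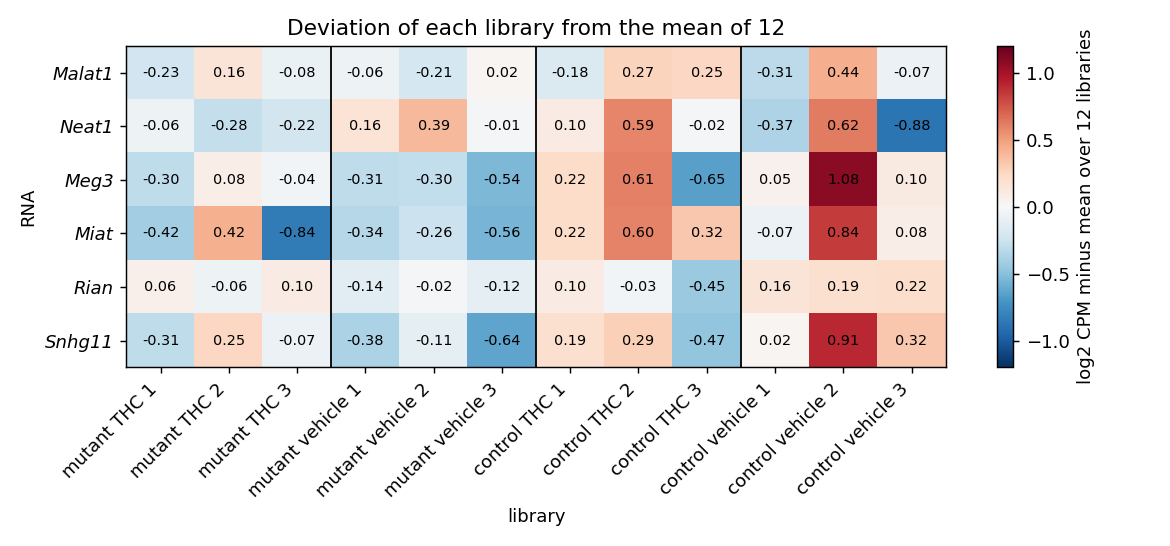
Log2 CPM of each RNA (down) in each library (across) minus its mean over the 12 libraries, with red above and blue below the mean. The column of control vehicle 2 is above the mean for all 6 RNAs, while control THC 3 combines low Meg3, Rian and Snhg11 with high Malat1 and Miat.

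The first comparison asked what THC did in mutant mice, by edgeR's quasi-likelihood test with Benjamini-Hochberg adjustment over all tested genes. None of the 6 RNAs passed, and the share of all tested genes that passed was 0%, with 906 genes at an unadjusted p under 0.05, none of them among the 6. DESeq2 and limma-voom likewise called 0 of the 6, and DESeq2 called 3 genes over the whole table. Malat1 averaged 8477 ± 1166 CPM in mutant THC and 8253 ± 684 CPM in mutant vehicle (SD, n = 3 each), a log2 fold change of 0.05 ± 0.19 (SE) with a 95% interval of -0.37 to 0.47 and an edgeR adjusted p of 0.97. Neat1 averaged 27.7 ± 2.21 CPM in mutant THC and 35.9 ± 5.04 CPM in mutant vehicle, a log2 fold change of -0.37 ± 0.32 (interval -1.07 to 0.33, edgeR adjusted p = 0.85). Neat1 was the 1 member whose groups did not overlap, being lower under THC, and 4.74% of all tested genes were non-overlapping and lower in this comparison. On the higher side 0 of the 6 and 3.51% of all tested genes were non-overlapping.

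The other 4 RNAs had values above 0 whose intervals included 0. The log2 fold changes in mutant mice were 0.31 ± 0.32 for Meg3, 0.21 ± 0.31 for Miat, 0.14 ± 0.11 for Rian and 0.34 ± 0.26 for Snhg11, with edgeR adjusted p-values of 0.87, 0.92, 0.85 and 0.84 in that order. Thus 5 of 6 were above 0, with a median of 0.17 against -0.01 over all tested genes. In this comparison the striatal markers differed as well, with a summed mean of 1721 CPM in mutant THC against 337 CPM in mutant vehicle. That difference came from mutant THC 3 (4768 CPM), as mutant THC 1 and 2 were at 195 and 198 CPM. Choroid plexus markers averaged 5351 CPM in mutant THC against 11284 CPM in mutant vehicle, and meningeal and mural markers 329 CPM in mutant THC against 449 CPM in mutant vehicle. The part of these markers in the result was not tested. Without mutant THC 2, which had the highest Miat of its group, the Miat value turned to -0.23 and the Malat1 value to -0.07.

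The second comparison asked the same in control mice. Again 0 of the 6 RNAs passed by edgeR, DESeq2 or limma-voom, against 0% of all tested genes by edgeR, of which 1106 had an unadjusted p under 0.05. Over the whole table DESeq2 called 12 genes. Rian averaged 407 ± 76.5 CPM in control THC and 499.6 ± 9.84 CPM in control vehicle (SD, n = 3 each). Its log2 fold change was -0.30 ± 0.11 (interval -0.55 to -0.06), with an unadjusted p of 0.0193 and an adjusted p of 0.70 by edgeR. Its groups did not overlap, as for 6.9% of all tested genes on the lower side (higher, 0 of the 6 and 9.59%), and without control THC 3 the value was -0.17. Choroid plexus markers averaged 3249 CPM in control THC, from control THC 2 (9071 CPM), against 375 CPM in control vehicle. Meningeal and mural markers were at 358 to 385 CPM in control THC against 280 to 309 CPM in control vehicle. Oligodendrocyte markers were 0.825 times and general neuronal markers 0.980 times as high in control THC. The part of these markers in the values of this comparison was not tested.

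Snhg11 averaged 240.4 ± 62.8 CPM in control THC and 323 ± 104 CPM in control vehicle, a log2 fold change of -0.44 ± 0.26 (edgeR adjusted p = 0.75). Meg3 averaged 504 ± 203 CPM in control THC and 640.1 ± 279 CPM in control vehicle, a log2 fold change of -0.36 ± 0.32 (edgeR adjusted p = 0.84). Neat1, at 0.31 ± 0.31, Malat1, at 0.07 ± 0.19, and Miat, at 0.04 ± 0.31, were on the other side of 0. The 6 values had a median of -0.13, against 0.00 over all tested genes. Much of this rested on control vehicle 2: without it Meg3 was at 0.06, Snhg11 at -0.15, Neat1 at 0.84, Miat at 0.37 and Malat1 at 0.31. Without control vehicle 1, Malat1 was at -0.09 and Miat at -0.13, and without control vehicle 3 Neat1 was at 0.03.

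The third comparison set mutant against control mice under THC. Of the 6 RNAs 0 passed by edgeR, DESeq2 or limma-voom, and 0 had an unadjusted edgeR p under 0.05. Among all tested genes 0.00633% passed by edgeR, which is 1 gene, Prm1, which encodes a protamine of sperm chromatin. Over the whole table DESeq2 called 7 genes. Miat averaged 144 ± 66.6 CPM in mutant THC and 214 ± 29.3 CPM in control THC (SD, n = 3 each), a log2 fold change of -0.57 ± 0.31 with an interval of -1.26 to 0.13 and an edgeR adjusted p of 0.57. Leaving out mutant THC 2 gave -1.002 and leaving out mutant THC 3 gave -0.32, so the size of this value turned on single libraries.

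Neat1 averaged 27.7 ± 2.21 CPM in mutant THC and 37.4 ± 8.70 CPM in control THC, a log2 fold change of -0.43 ± 0.32 (interval -1.13 to 0.27, edgeR adjusted p = 0.65). These groups did not overlap, as for 6.1% of all tested genes on the lower side (higher, 0 of the 6 and 4.35%), and without control THC 2 the value was -0.23. Malat1 (-0.17 ± 0.19), Meg3 (-0.22 ± 0.32) and Snhg11 (-0.06 ± 0.26) were below 0 and Rian (0.15 ± 0.11) above it. Without control THC 2, Meg3 was at 0.07 and Snhg11 at 0.08, and without control THC 3 Rian was at 0.01. With 1 library left out, Malat1 ran from -0.30 (without control THC 1) to -0.08 (without mutant THC 1). The median of the 6 was -0.20, against 0.01 over all tested genes. In the same comparison striatal markers were 8.96 times as high in mutant THC as in control THC libraries, choroid plexus markers 1.65 times, oligodendrocyte markers 1.41 times and general neuronal markers 0.932 times, and their part in the values was not tested. The striatal ratio came from mutant THC 3 (4768 CPM), while mutant THC 1 and 2 were at 195 and 198 CPM.

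Mutant against control mice under vehicle is described without a test, since results of this contrast were known when the RNAs were chosen. In 4 of the 6, every mutant vehicle library was below every control vehicle library, where 11.3% of all tested genes were non-overlapping and lower, 16.2% non-overlapping and higher, and 0.00633% (Prm1 alone) passed edgeR's test. Meg3 averaged 349.9 ± 32.7 CPM in mutant vehicle and 640.1 ± 279 CPM in control vehicle, a log2 fold change of -0.89 ± 0.33. Snhg11 averaged 182 ± 33.1 CPM in mutant vehicle and 323 ± 104 CPM in control vehicle (-0.84 ± 0.26), and Miat 125 ± 13.3 CPM in mutant vehicle and 207 ± 74.9 CPM in control vehicle (-0.74 ± 0.31). Rian was at 411 ± 17.8 CPM in mutant vehicle and 499.6 ± 9.84 CPM in control vehicle (-0.30 ± 0.11).

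For the 2 RNAs of nuclear bodies these groups overlapped. Malat1 averaged 8253 ± 684 CPM in mutant vehicle and 9067 ± 2495 CPM in control vehicle (-0.15 ± 0.19), and Neat1 35.9 ± 5.04 CPM in mutant vehicle and 30.0 ± 16.4 CPM in control vehicle (0.25 ± 0.31). Without control vehicle 2, Meg3 was at -0.46, Snhg11 at -0.55, Miat at -0.40, Rian at -0.29, Malat1 at 0.09 and Neat1 at 0.78. Without control vehicle 3, Neat1 was at -0.03. Summed choroid plexus markers were 30.1 times as high in mutant vehicle as in control vehicle libraries, oligodendrocyte markers 1.27 times and general neuronal markers 0.906 times. Neuronal markers lay between 7370 and 7915 CPM in mutant vehicle libraries and between 8276 and 8797 CPM in control vehicle libraries. The part of these markers in the values of the 6 RNAs was not tested.

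The interaction, which asks whether THC acted differently in the 2 genotypes, passed for 0 of the 6 RNAs by edgeR, DESeq2 or limma-voom and, by edgeR, for 0% of all tested genes, 1041 of which had an unadjusted p under 0.05. Over the whole table DESeq2 called 34 genes. The interaction log2 value was 0.44 ± 0.16 for Rian (interval 0.10 to 0.79), with an unadjusted p of 0.0171 and an adjusted p of 0.71 by edgeR. It was 0.78 ± 0.37 for Snhg11, 0.66 ± 0.46 for Meg3, -0.68 ± 0.45 for Neat1, 0.17 ± 0.44 for Miat and -0.02 ± 0.27 for Malat1, with edgeR adjusted p-values of 0.76, 0.80, 0.78, 0.96 and 0.99. Without control vehicle 2 it was 0.50 for Snhg11, 0.24 for Meg3, -1.21 for Neat1, -0.17 for Miat and 0.44 for Rian. The comparisons share libraries, so their values are not independent of each other. The THC comparisons and the interaction use the same vehicle libraries as the contrast known when the RNAs were chosen, so their values for the 6 RNAs are not independent of that choice.

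**Figure D3:**
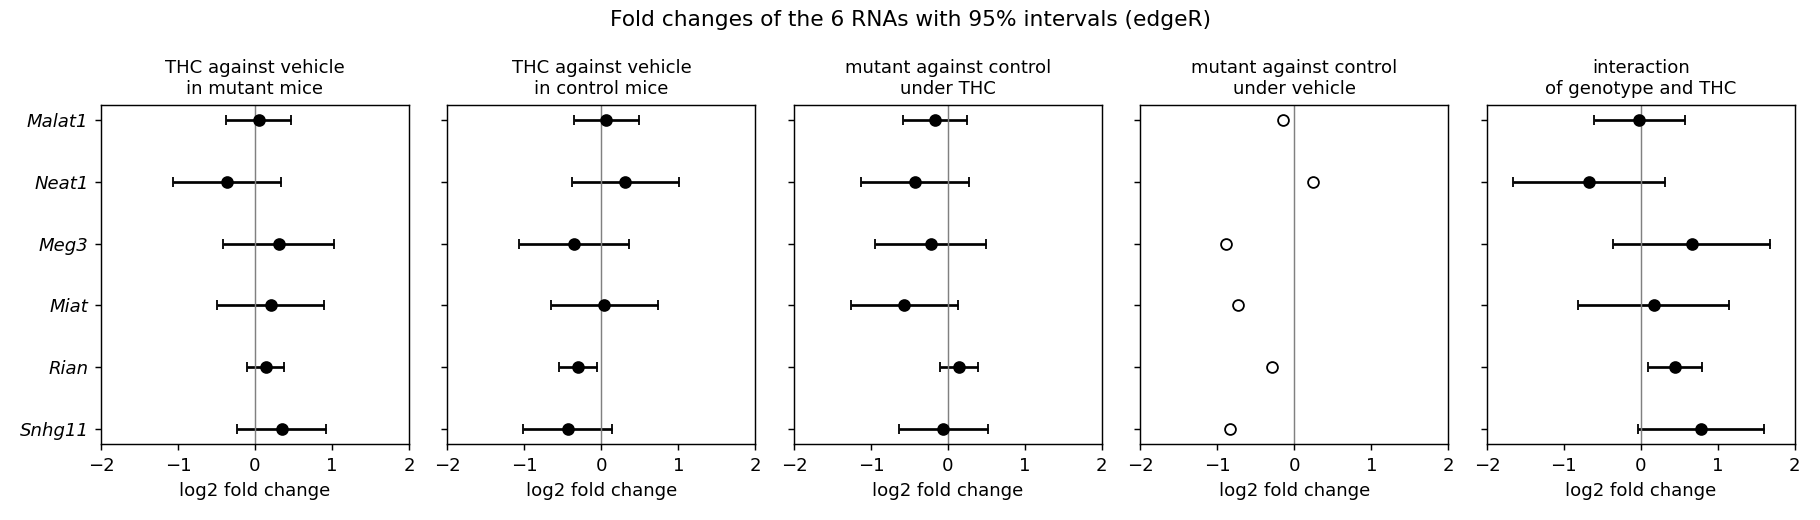
Log2 fold change (first-named group over second) of each RNA in the 4 comparisons and the interaction, from edgeR, with 95% intervals where a test was made. All filled intervals cross 0 except those of Rian for THC in control mice and for the interaction, whose adjusted p-values were 0.70 and 0.71. Open circles show the comparison described without a test.

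Across libraries, Meg3 and Snhg11, which lie on different chromosomes, kept nearly the same order. In log2 CPM over the 12 libraries Pearson's r was 0.94 and Spearman's rho 0.96, each with a permutation p of 1e-05, the smallest that the permutations can give, and a Benjamini-Hochberg adjusted p of 0.00015 over the 15 pairs of RNAs. Leaving out the 2 libraries farthest from the median of Meg3 gave r = 0.88, and leaving out control vehicle 2 gave r = 0.90. With each group's mean taken away r was 0.92, for which no p was computed. Within the 6 libraries with over 1000 CPM of the choroid plexus gene Ttr r was 0.93, and within the other 6 it was 0.97. The permutations shuffled libraries freely across groups. Among the 12 are the vehicle libraries of the contrast known when the RNAs were chosen, in which both RNAs were lower in mutant vehicle. The permutation p-values are therefore not independent of that choice.

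Of the remaining 14 pairs 0 passed. The lowest adjusted permutation p was 0.0574, shared by Malat1 with Miat (r = 0.69), Meg3 with Miat (r = 0.67) and Miat with Snhg11 (r = 0.71). Meg3 and Rian, neighbours in 1 imprinted domain, had r = 0.64 and rho = 0.66 with an adjusted permutation p of 0.0728, and r = 0.39 without the 2 libraries farthest from the Meg3 median. For this pair r was 0.59 without the 2 libraries farthest from the Rian median and 0.60 without control vehicle 2. Within the 6 libraries high in Ttr it was 0.27, and within the other 6 it was 0.75. Malat1 and Neat1, also neighbours, had r = 0.43 and rho = 0.41 with an adjusted permutation p of 0.285. Depth and tissue makeup of a library are shared by every pair, and their part in these values was not tested beyond the splits given.

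**Figure D4:**
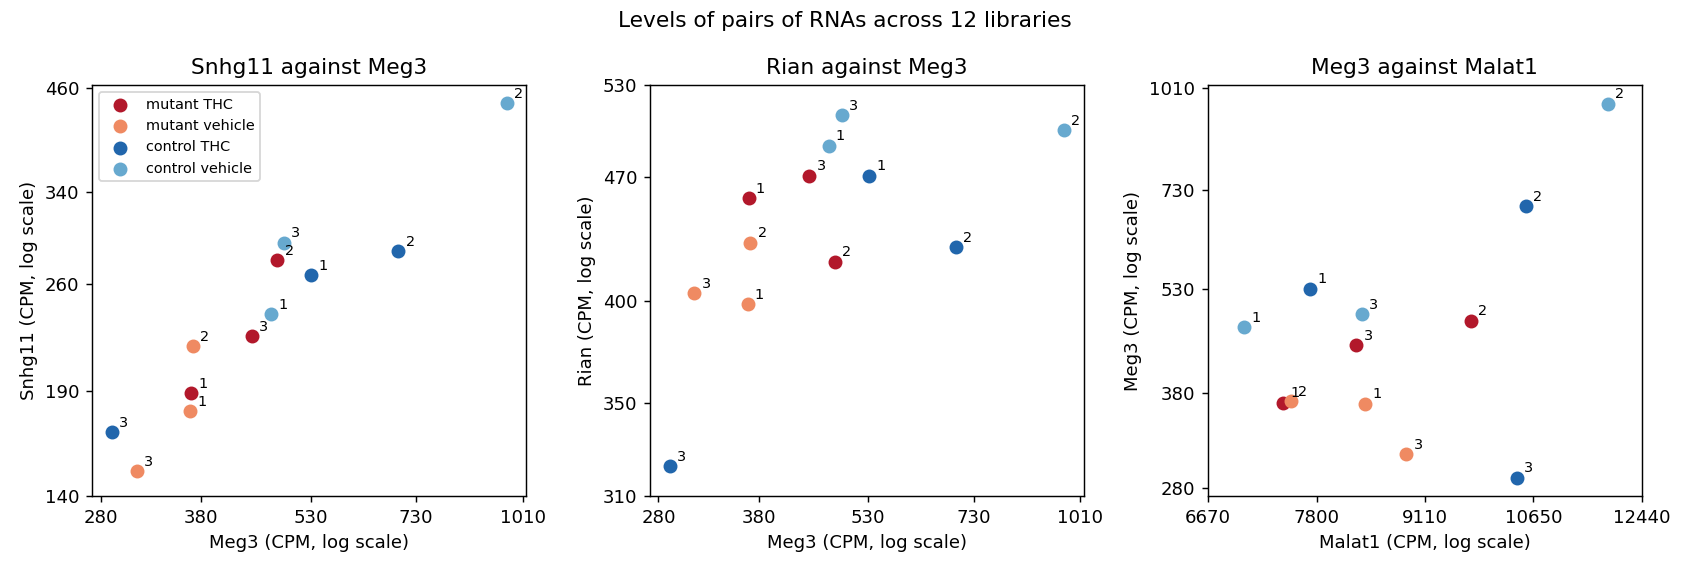
Levels of Snhg11 against Meg3, Rian against Meg3 and Meg3 against Malat1 (CPM, log axes) in the 12 libraries, numbered within groups. Snhg11 and Meg3 fall on a narrow band (r = 0.94), while Rian against Meg3 (r = 0.64) and Meg3 against Malat1 (r = 0.47) scatter.

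The promoters of this pair are shown since their levels went together (RefSeq, GRCm38.p6, plus strand, 250 bases before to 50 after the start). The capitals mark TGACGTCA, the palindromic motif known as the cAMP response element.
Meg3 (chr12:109540746-109541045): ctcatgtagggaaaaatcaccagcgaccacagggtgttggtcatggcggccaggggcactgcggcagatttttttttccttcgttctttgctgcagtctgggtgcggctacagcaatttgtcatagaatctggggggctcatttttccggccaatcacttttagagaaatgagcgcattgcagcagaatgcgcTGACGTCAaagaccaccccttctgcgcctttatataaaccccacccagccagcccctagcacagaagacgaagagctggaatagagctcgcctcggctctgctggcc
Snhg11 (chr2:158375463-158375762): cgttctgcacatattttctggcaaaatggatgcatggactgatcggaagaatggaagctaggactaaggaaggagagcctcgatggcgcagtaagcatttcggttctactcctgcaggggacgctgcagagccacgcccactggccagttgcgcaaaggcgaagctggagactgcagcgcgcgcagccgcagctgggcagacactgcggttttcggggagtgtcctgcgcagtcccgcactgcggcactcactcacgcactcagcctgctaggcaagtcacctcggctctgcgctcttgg

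TGACGTCA begins at position -57 from the Meg3 start shown and is not in the Snhg11 window, nor in the windows of Miat, Rian and Malat1. A second Meg3 window (chr12:109545148-109545447), not printed, holds 0 copies. Neat1 had no promoter window to search. The motif reads the same on both strands and is found in 588 of 32851 promoter windows of this length (1.79%).

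Genes whose levels followed each RNA most closely across the 12 libraries were named as a description, among tested genes with a mean of at least 10 CPM. For Malat1 these were 9530059O14Rik (r = 0.95), Srek1 (0.93), 5031425E22Rik (0.90) and Zfc3h1 (0.90), and Srek1 encodes a splicing regulator. For Neat1 they included Flna (0.83), which encodes the actin cross-linker filamin A, Fkbp15 (0.82) and Zfp146 (0.79). For Miat they were Cpt1c (0.97), a carnitine palmitoyltransferase of brain, Cables2 (0.96), Nfrkb (0.95) and Ahi1 (0.94). Rian was followed by Ptp4a3 (0.97), Kcnf1 (0.95), Fbxl2 (0.93) and Tmem44 (0.93), all 4 with their lowest level in control THC 3. After Snhg11, Meg3 was followed by Limk2 (0.94), Cntrob (0.93) and Mthfsd (0.93), and Snhg11 by Tmem151a (0.95), Meg3 (0.94), Rhbdd3 (0.94) and Limk2 (0.93). Limk2, a kinase that acts on cofilin, stood in both sets and varied little, between 90.2 and 108 CPM. Every gene named for Malat1, Miat, Meg3 and Snhg11 had its highest level in control vehicle 2, the highest library of those RNAs too. What that library adds to these r was not tested.

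The proteins and RNAs these transcripts work with were counted in the same fits, and 0 genes of any of the 9 lists passed edgeR's threshold in any comparison. The values under THC below come from the libraries in which striatal markers were 8.96 times and oligodendrocyte markers 1.41 times as high in mutant as in control mice, and the part of these markers was not tested. High striatal markers were a feature of mutant THC 3 alone (4768 CPM), with mutant THC 1 and 2 at 195 and 198 CPM. Of 21 tested nuclear speckle and splicing proteins, 19 were below 0 in mutant against control mice under THC. Their median was -0.12 against 0.01 over all tested genes, of which 48.5% were below 0. Acin1 was at -0.19 ± 0.05 and the splicing kinase gene Clk1 at -0.23 ± 0.09 there. Of 22 paraspeckle proteins, 17 were below 0 with a median of -0.03, and Sfpq, which encodes a core paraspeckle protein, was at -0.28 ± 0.09. The 4 tested Miat partners were all below 0 (median -0.13), and Celf3, an RNA-binding protein of neurons, was at -0.31 ± 0.12. These leans were not particular to THC. In mutant against control mice under vehicle, 16 of the 21 speckle and splicing proteins were below 0 (median -0.10). So were 16 of the 22 paraspeckle proteins (median -0.06) and 3 of the 4 Miat partners (median -0.10), against 51.1% of all tested genes.

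Of 18 tested snoRNA host genes, 16 were below 0 in mutant against control mice under THC, with a median of -0.22, and Snhg15 was at -0.51 ± 0.20. In mutant against control mice under vehicle, 14 of the 18 were below 0 as well (median -0.10). By contrast 14 of the 18 were above 0 for THC in control mice (median 0.13), where Snhg11 itself was at -0.44 ± 0.26. Cytoplasmic ribosomal protein mRNAs, listed as RNAs that leave the nucleus, were above 0 in 44 of 51 cases under THC (median 0.07) and 47 of 51 under vehicle (median 0.05) in mutant against control mice. The 15 genes that make or bind the Malat1 end split 8 above to 7 below 0 under THC (median 0.01), and the 11 genes of the Polycomb complex 6 to 5 (median 0.03). Of 21 other long noncoding or small structural RNAs 11 were above 0 (median 0.03), with Sox2ot at 0.45 ± 0.13.

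In the Dlk1-Dio3 domain and its neighbours, 8 genes were tested. Mirg, the third maternal noncoding RNA of the domain, was at 4.28, 5.26 and 5.48 CPM in mutant THC libraries, 4.55, 4.11 and 3.11 CPM in mutant vehicle, 6.36, 6.62 and 4.89 CPM in control THC and 5.43, 7.93 and 6.83 CPM in control vehicle. Every mutant vehicle library was below every control vehicle library, as for Meg3 and Rian, with a log2 fold change of -0.79 ± 0.19, given without a test as for the 6 RNAs. In mutant against control mice under THC 5 of the 8 were below 0 (median -0.09), and Slc25a29, a mitochondrial carrier outside the imprinted genes, was at -0.38 ± 0.08 (edgeR adjusted p = 0.55). Under vehicle 6 of the 8 were below 0 (median -0.15). The named genes of these lists did not pass.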

How the data were processed

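The authors deposited 1 table of RSEM expected counts per gene, per the file headers, not scaled for depth or length. Tools listed in the submitters' processing notes are Bowtie2 2.2.2, RSEM 1.2.21, CASAVA 1.8.4, FastQC and edgeR 3.10.2, with the build mm10. Per the labels' protocols, ribosomal RNA was removed from total RNA and paired ends of 100 bases were read. The strand setting was not given in the sources used here. Reads of overlapping antisense transcripts may be included, and RSEM divides ambiguous reads between genes. All 12 columns matched a sample by name.

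Row names are RefSeq accessions. Symbols came from RefSeq GRCm38.p6 (23011 rows) and GENCODE metadata (129 rows, Snhg11 among them); 7 rows held several symbols and 235 none (0.727% of counts). One accession of the Meg3 row was matched in no table.

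Expected counts were rounded, filtered with filterByExpr and scaled by TMM (factors 0.989 to 1.01). The quasi-likelihood test of edgeR 4.0.16 (R 4.3.3) used all 12 libraries, 4 group means and 8 residual degrees of freedom, with p-values adjusted over 15802 genes and a threshold of 0.05. DESeq2 1.42.0 and limma 3.58.1 (voom), no filter, other scaling and libraries left out were alternatives. CPM and log2 CPM (prior count 2) were computed here. Correlations used 1e+05 permutations, 2-sided. Scripts were tested on simulated data.

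The members and lists were chosen with earlier results of these data known. Named genes were the 6 RNAs, the 4 tested genes most like each by Pearson's r (1 of these is not reported here), and from each list up to 2 genes with the smallest p per comparison. Mirg levels, the pair of promoters and the split by Ttr were chosen after values were seen.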

Additional observations from a re-analysis of the deposited data

Results flagged for a closer look

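In 3 of the 6 RNAs the THC libraries lay on opposite sides of the vehicle mean in mutant and in control mice, as they did in 6.76% of the 15802 tested genes. Each of the 3 mutant THC libraries lay on 1 side of the mutant vehicle mean, and each of the 3 control THC libraries lay on the other side of the control vehicle mean. For Snhg11 and Rian the mutant THC libraries were above and the control THC libraries below, with interaction log2 values of 0.78 and 0.44. For Neat1 the mutant THC libraries were below and the control THC libraries above, with an interaction log2 value of -0.68. The test of the difference itself, the edgeR interaction, was not passed by any of the 3, with adjusted p-values of 0.76 for Snhg11, 0.71 for Rian and 0.78 for Neat1. The vehicle libraries that set both means are those of the contrast known when the RNAs were chosen, in which Snhg11 and Rian were low in mutant vehicle and high in control vehicle, so these directions are in part fixed by that choice and the count is not read against the share of all tested genes. Single vehicle libraries decided the pattern for Snhg11, where it was lost without control vehicle 2 or without mutant vehicle 3, and for Neat1, where it was lost without control vehicle 1 or without control vehicle 3. For Rian it held with any 1 vehicle library left out. Leaving out a THC library only removes a condition, so it could not break the pattern for any of the 3.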

How the results depend on the processing

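No paired analysis was possible because the numbers in the labels do not recur between groups. Of 450 member fold changes in the tested comparisons under an alternative, 426 kept their sign and 24, in 9 results, changed it. Of 114 in mutant against control under vehicle, described without a test, 2 changed sign, Malat1 without control vehicle 2 (0.0934) and Neat1 without control vehicle 3 (-0.0311). In the 4 tested comparisons 0 member values passed under any alternative, the lowest adjusted p being 0.106. The Malat1 interaction turned to 0.0029 with no filter, to 0.0501 without mutant THC 3 and mutant vehicle 3 (chosen after seeing the data), and ran from -0.259 to 0.139 with 1 library left out. With 1 library left out, THC in mutant mice ran from -0.0659 to 0.141 for Malat1 and from -0.231 to 0.451 for Miat. THC in control mice ran from -0.0892 to 0.307 for Malat1, -0.648 to 0.0630 for Meg3 and -0.132 to 0.375 for Miat. Mutant against control under THC ran from -0.495 to 0.0722 for Meg3 and -0.251 to 0.0840 for Snhg11, and the Miat interaction from -0.268 to 0.411. Genes called over the whole table were 0 and 0 for THC in mutant and control mice, 1 and 1 for mutant against control under THC and vehicle, and 0 for the interaction. DESeq2 called 3, 12, 7, 788 and 34 in that order, and limma-voom 0 for both genotype comparisons. Fits with only the groups compared called 0 under THC and 523 under vehicle, and 0 and 0 were called without the 2 libraries with striatal markers. With 1 library left out the calls ran from 0 to 3, 0 to 0, 0 to 2, 0 to 6 and 0 to 10. The causes were not tested. With 3 libraries a group, intervals of Meg3, Miat, Neat1 and Snhg11 were over 1 wide on the log2 scale, as was that of the Malat1 interaction. Real changes within these intervals may have been missed. The smallest change that the tests could detect was not computed.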

Other observations

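Kcnq1ot1, a nuclear imprinted RNA picked after its values were seen, was at 219, 426 and 204 CPM in mutant THC libraries, 248, 258 and 291 CPM in mutant vehicle, 229, 247 and 361 CPM in control THC and 224, 425 and 232 CPM in control vehicle. Its highest libraries were mutant THC 2 and control vehicle 2, and control vehicle 2 was also the highest for Malat1, Neat1, Meg3, Miat and Snhg11.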
